A study of Rattus norvegicus with 145 samples.

Results

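The liver of the adult rat differs between the sexes in many genes outside the cytochromes P450, and 9 of those genes are described here: Hsd3b5, LOC298116, LOC259244, Obp3, Dhrs7, Stac3, Nox4, Ust5r and Lrtm2. They were taken by symbol from the deposited counts, which list 17337 genes, and all 9 symbols were found. The 9 were chosen by their measured values, since their level was high in the male and low in the female samples of experiment B and the male level was lower at higher doses there. The level by sex and the male dose response of experiment B are therefore given as a description, without a test. The dose response of experiment A, that of the females and the differences among vehicle groups of 1 sex were tested, as they are not the contrasts of the choice, although the levels of the vehicle rats and females of experiment B entered it.

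Liver RNA was sequenced in 145 Wistar rats, 85 males and 60 females, given acetamide in water or water alone by daily oral gavage. Experiment A held 25 males of the stock Hsd:WI, aged 9 to 10 weeks, treated for 7 days and sampled on day 8, in dose groups of 0, 30, 100, 300 and 1000 mkd (mg per kg body weight and day). Experiment B held males and females of the stock Crl:WI, aged 8 to 10 weeks, at 0, 300, 500, 750, 1000 or 1500 mkd for 7 days (day 8) or 28 days (day 29). Each of the 29 groups held 5 separate rats, so errors are over rats, and RNA came from the left liver lobe. Wistar rats are an outbred stock, and RNA of a whole lobe holds every cell type of the liver, so fewer cells of a type and less RNA per cell cannot be told apart.

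The best known regulator of sex differences in rat liver is growth hormone. Males secrete it in pulses and females almost continuously, and hepatocytes read the pattern through the growth hormone receptor, JAK2 and STAT5B, which switch male and female gene programmes. Androgens and estrogens act largely through this pituitary pattern. The alpha-2u-globulins, small lipocalins made by male liver and excreted in urine, are a classic output of the male programme.

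The 9 genes fall into groups by role. Obp3, LOC259244 and LOC298116 belong to the alpha-2u-globulin cluster. Hsd3b5 encodes a hydroxysteroid dehydrogenase of male rodent liver that reduces 3-keto steroids, and Dhrs7 encodes a short-chain dehydrogenase/reductase. Nox4 encodes the NADPH oxidase that forms hydrogen peroxide constitutively. Ust5r encodes a transporter of the organic anion (Slc22) family. Stac3 encodes an adaptor best known from excitation-contraction coupling in skeletal muscle, and Lrtm2 encodes a membrane protein with leucine-rich repeats.

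The sequences upstream of Obp3 and LOC259244 are shown because both genes belong to the alpha-2u-globulin cluster. No link between these sequences and the levels was tested. In the RefSeq promoter table (build GRCr8, which differs from the Rn6 build used for the counts), 6 of the 9 genes had an entry that could be used. LOC259244 stands there as Mup4l4, and the symbol Dhrs7 was not matched because it is shared by 2 gene records. The 250 bases before the annotated start are given 5′ to 3′ for Obp3 (chr5:79640676-79640925, minus strand) and LOC259244 (chr5:79707808-79708057, minus strand), with matches to TTGCNNAA, a C/EBP-type motif, and to TATAAA in capitals.
Obp3: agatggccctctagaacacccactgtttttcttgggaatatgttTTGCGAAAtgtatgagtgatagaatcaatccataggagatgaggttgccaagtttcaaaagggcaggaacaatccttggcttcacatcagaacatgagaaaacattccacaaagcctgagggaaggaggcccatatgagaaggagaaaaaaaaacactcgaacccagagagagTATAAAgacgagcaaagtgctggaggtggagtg
LOC259244: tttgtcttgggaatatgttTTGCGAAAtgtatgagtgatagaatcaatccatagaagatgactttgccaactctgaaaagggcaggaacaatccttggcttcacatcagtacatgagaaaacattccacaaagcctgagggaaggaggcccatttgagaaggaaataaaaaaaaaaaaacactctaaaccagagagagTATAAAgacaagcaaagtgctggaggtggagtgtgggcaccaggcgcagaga

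The upstream sequences of Obp3 and LOC259244 were nearly the same. Over 231 aligned positions, 212 bases (91.8%) were equal and 6 positions were gaps. In Obp3, TTGCNNAA began 206 and TATAAA 33 bases before the start, and in LOC259244 they began 231 and 52 bases before it. Ust5r held TATAAA 183 bases before its start, and the windows of Stac3, Nox4 and Lrtm2 held no match to either motif. TTCNNNGAA, a STAT5-type motif, matched in none of the 6 windows. On both strands of the 33469 windows of this length in the table, TTCNNNGAA was found in 7.67%, TTGCNNAA in 9.22% and TATAAA in 12.9%. These are matches of letters only. Members of a multigene family can share reads, and since the transcripts were not compared here, the counts of Obp3, LOC259244 and LOC298116 are uncertain as values of single genes.

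Levels are CPM, the counts of a gene relative to the library total scaled by TMM. CPM is not divided by gene length, so levels are compared between rats for a gene and not between genes.

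In vehicle males, the level varied least for Ust5r and Hsd3b5 and most for Stac3 and Lrtm2. The coefficient of variation among the 5 rats of a group was 11.8 to 23.7% for Ust5r and 13.9 to 23.3% for Hsd3b5. It reached 46.0 to 72.7% for Stac3 and 32.6 to 92.5% for Lrtm2. Stac3 in the vehicle males of experiment B day 8 stood at 8.95, 50.2, 137, 90.0 and 48.6 CPM, a range of 15.4-fold within a group of untreated rats. Lrtm2 in the same rats stood at 9.97, 24.4, 3.62, 3.49 and 5.80 CPM. A difference between dose groups thus has to exceed a far wider spread for Stac3 and Lrtm2 than for Hsd3b5 and Ust5r.

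**Figure D1:**
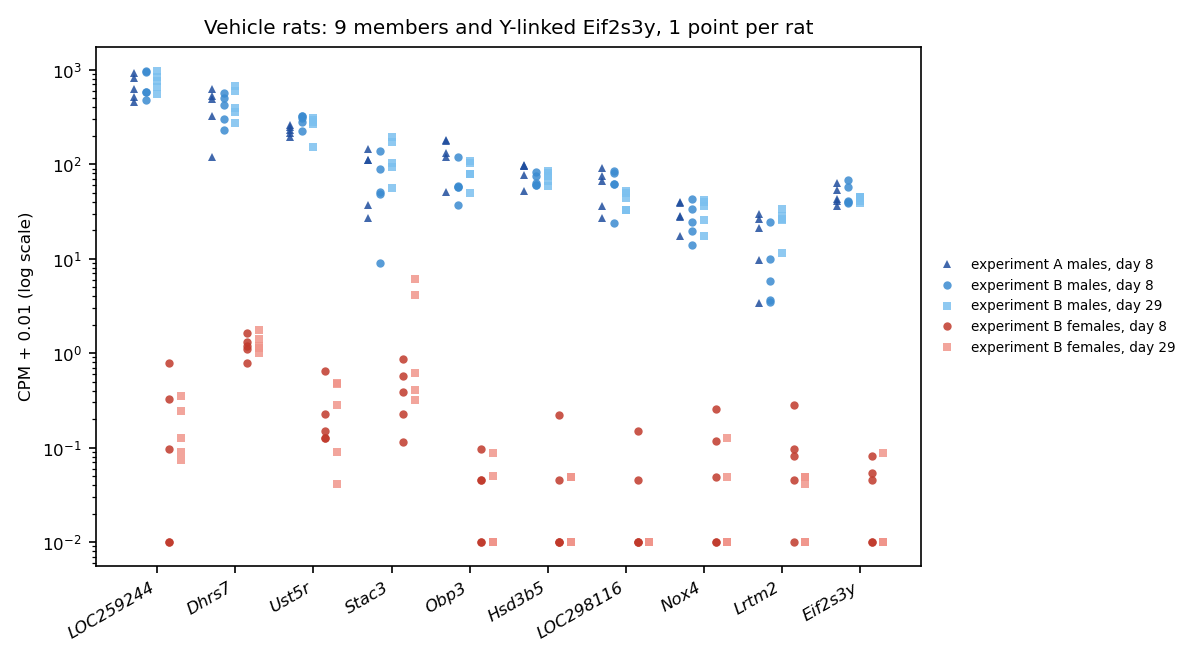
Level of the 9 genes and of Y-linked Eif2s3y in the 25 vehicle rats (CPM plus a small offset, log axis), each point a rat, by sex, day and experiment. The males of every gene lie above the females, and the spread among males is widest for Stac3 and Lrtm2.

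All 9 genes were higher in every vehicle male than in every vehicle female of the same duration, on day 8 and on day 29. Over all genes, 4.82% on day 8 and 6.22% on day 29 had every male above every female, and since this contrast chose the genes, nothing is read from the comparison. The lowest male exceeded the highest female by more than 10-fold for 9 genes on day 8 and for 8 on day 29, against 0.318 and 0.311% of all genes. Stac3 was the exception on day 29, with the lowest male 9.14-fold above the highest female.

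Among the alpha-2u-globulin genes, LOC259244 on day 8 stood at 588, 584, 957, 483 and 968 CPM in vehicle males and at 0.778, 0, 0, 0.0870 and 0.317 CPM in vehicle females. The ratio of the pooled levels (counts of a group over its pooled library size), male over female, was 3032 on day 8 and 4632 on day 29. Obp3 was 2360-fold higher in males on day 8, when females held 0 to 0.0870 CPM, or 4 counts over the group. LOC298116 was 1788-fold higher on day 8, on 5 female counts. Ratios on so few counts are imprecise, and their order is not read. On day 29 no vehicle female had a count of LOC298116, so that the males were at least 1890-fold higher, taking 3 counts over the female group as the floor.

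Hsd3b5 stood at 63.0, 82.9, 75.8, 59.7 and 60.9 CPM in day 8 vehicle males, and 3 of the 5 females had no count. The male to female ratio was 1393, on 7 female counts. Ust5r was 1209-fold higher on day 8 and 1029-fold on day 29, and Nox4 357-fold and 1082-fold. The Nox4 ratios rest on 11 and 4 female counts, and their counting intervals overlapped, so no change between days is read. For comparison, the Y-linked gene Eif2s3y, which females lack, had a ratio of 1688 on day 8, on 4 female counts. Ddx3y, another gene listed as Y-linked, overlapped between the sexes, with females at 121% of the vehicle male level on day 8, and was not used for this.

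Dhrs7, Stac3, Nox4 and Lrtm2 kept a remainder above that of Eif2s3y in the females of day 8. Dhrs7 was counted in all 10 vehicle females, at 1.63, 1.31, 1.18, 0.783 and 1.09 CPM on day 8 and at 0.998, 1.17, 1.12, 1.40 and 1.73 CPM on day 29, and was 346-fold and 363-fold higher in males. Stac3 was 158-fold higher in males on day 8 and 55.4-fold on day 29, and Lrtm2 was 122-fold higher on day 8. These remainders can be set against Eif2s3y. Over the 30 females of day 8, Eif2s3y reads amounted to 0.0449% (95% Poisson interval 0.0270 to 0.0700) of the vehicle male level. In the same rats Hsd3b5 amounted to 0.0392%, LOC259244 to 0.0448% and Obp3 to 0.0506%. Nox4 amounted to 0.146% (0.102 to 0.202), Dhrs7 to 0.353% (0.335 to 0.373), Stac3 to 0.373% (0.326 to 0.426) and Lrtm2 to 0.957% (0.767 to 1.18), so that these 4 intervals lie above that of Eif2s3y. On day 29, without the library described next, Eif2s3y amounted to 0.0193% (0.00777 to 0.0398), and the intervals of Hsd3b5 (0.0583%) and Ust5r (0.0802%) also lay above it. The intervals pool rats of all doses and cover counting error only, not the spread between rats. Since female levels entered the choice of genes, the comparison with Eif2s3y is a description and not a test.

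The female library of day 29, 300 mkd, replicate 3 stood apart from the other females. Its Eif2s3y level was 0.784 CPM, against at most 0.128 CPM in the other 59 females, of which 42 had no count, and 29.1 to 87.0 CPM in the 85 males. This is 1.84% (1.11 to 2.87) of the vehicle male level, and the 9 genes stood there at 0.985 to 5.00% (median 1.28%). Of the 9, 7 had their highest value of all 60 females in this library, with LOC259244 at 15.2, Dhrs7 at 6.43 and Ust5r at 3.88 CPM. The interval overlapped that of Eif2s3y for 8 genes, and Stac3, at 5.00% (4.23 to 5.87), lay above it. The female-specific Cyp2c12 stood at 3722 CPM there, within the 2789 to 4041 CPM of the other rats of its group. The origin of these reads was not tested.

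In experiment A at 1000 mkd, Hsd3b5, LOC259244, Stac3, Nox4 and Ust5r fell in male liver, 5 of the 9 genes by the criteria of a |fold change| of at least 1.5 and an adjusted p of at most 0.05. None of the 9 rose. Of all 11323 genes tested, 21.4% passed in either direction and 7.45% were lower. The median log2 fold change was -1.33 for the 9 genes and 0.00093 over all genes. The 5 calls rested on the shared spread of the 5 dose groups. With only the vehicle and the 1000 mkd rats in the fit, none of the 9 passed, while 1967 genes did, and the log2 fold changes of the 5 genes were the same to 2 decimals. Leaving replicate 4 out of every group also left none of the 9.

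LOC259244 and Ust5r separated the groups completely. LOC259244 stood at 514, 931, 620, 815 and 456 CPM in the vehicle rats and at 328, 38.5, 445, 143 and 259 CPM at 1000 mkd. Ust5r stood at 214, 262, 247, 231 and 193 CPM in the vehicle rats and at 160, 15.6, 173, 82.5 and 87.4 CPM at 1000 mkd. Every treated rat thus lay below every vehicle rat, which held for 7.66% of all genes with a mean of at least 0.5 CPM. The log2 fold change was -1.46 ± 0.41 (SE) for LOC259244 (edgeR, adjusted p = 0.0092, and 0.0547 with these 2 groups alone) and -1.15 ± 0.34 for Ust5r (edgeR, adjusted p = 0.0126, and 0.0892 with these 2 groups alone).

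Hsd3b5 stood at 98.1, 77.4, 95.2, 96.6 and 52.4 CPM in the vehicle rats and at 57.8, 17.9, 70.8, 45.5 and 41.7 CPM at 1000 mkd. The groups overlapped through vehicle replicate 5 and treated replicates 1 and 3. The log2 fold change was -0.85 ± 0.23 (edgeR, adjusted p = 0.00796, and 0.0645 with these 2 groups alone), the smallest of the 5 genes called and the one with the lowest adjusted p.

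Of the 5 genes called, Nox4 and Stac3 fell furthest. Nox4 stood at 38.4, 27.6, 28.4, 40.2 and 17.3 CPM in the vehicle rats and at 11.6, 0.405, 33.4, 3.64 and 2.04 CPM at 1000 mkd, and 4 of the 5 treated rats lay below every vehicle rat. Stac3 stood at 146, 111, 37.4, 111 and 26.9 CPM and at 14.0, 0.366, 55.8, 5.80 and 4.48 CPM, with the same 4 rats below the vehicle range. In both genes replicate 3 at 1000 mkd lay within the vehicle range. The log2 fold change was -1.58 ± 0.59 for Nox4 (edgeR, adjusted p = 0.0444, and 0.173 with these 2 groups alone) and -2.43 ± 0.72 for Stac3 (edgeR, adjusted p = 0.0139, and 0.0811 with these 2 groups alone).

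The other 4 genes did not pass. Obp3 stood at 121, 179, 130, 175 and 50.5 CPM in the vehicle rats and at 64.5, 3.12, 107, 13.9 and 34.3 CPM at 1000 mkd, with a log2 fold change of -1.56 (edgeR, adjusted p = 0.0544). The values were -1.20 (adjusted p = 0.188) for LOC298116 and -1.33 (adjusted p = 0.144) for Lrtm2. Dhrs7 was the only gene with a higher mean at 1000 mkd, at 624, 45.3, 896, 360 and 524 CPM against 624, 492, 530, 326 and 119 CPM in the vehicle rats (log2 fold change 0.23, adjusted p = 0.765). Its fold change turned to -0.11 without treated replicate 3 and to -0.01 without vehicle replicate 5.

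The rats at 1000 mkd did not respond alike across the 9 genes. Replicate 2 lay below the vehicle range in all 9, at 0.424 to 21.3% of the vehicle mean. Replicates 4 and 5 lay below it in 7 genes each and replicate 1 in 4. Replicate 3 lay below it in LOC259244 and Ust5r, within it in 6 genes and above it in Dhrs7. Leaving out any 1 of the 10 rats gave 4 to 8 calls, with 8 without treated replicate 3, where LOC298116, Obp3 and Lrtm2 also fell. Nox4 lost its call in 8 of these 10 fits and Hsd3b5, LOC259244, Stac3 and Ust5r in none of them. In replicate 2 albumin (Alb) stood at 23.1% of its vehicle mean, while Mki67, a proliferation marker, stood at 30.8 CPM, against 17.6 to 52.0 CPM in the other treated rats.

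**Figure D2:**
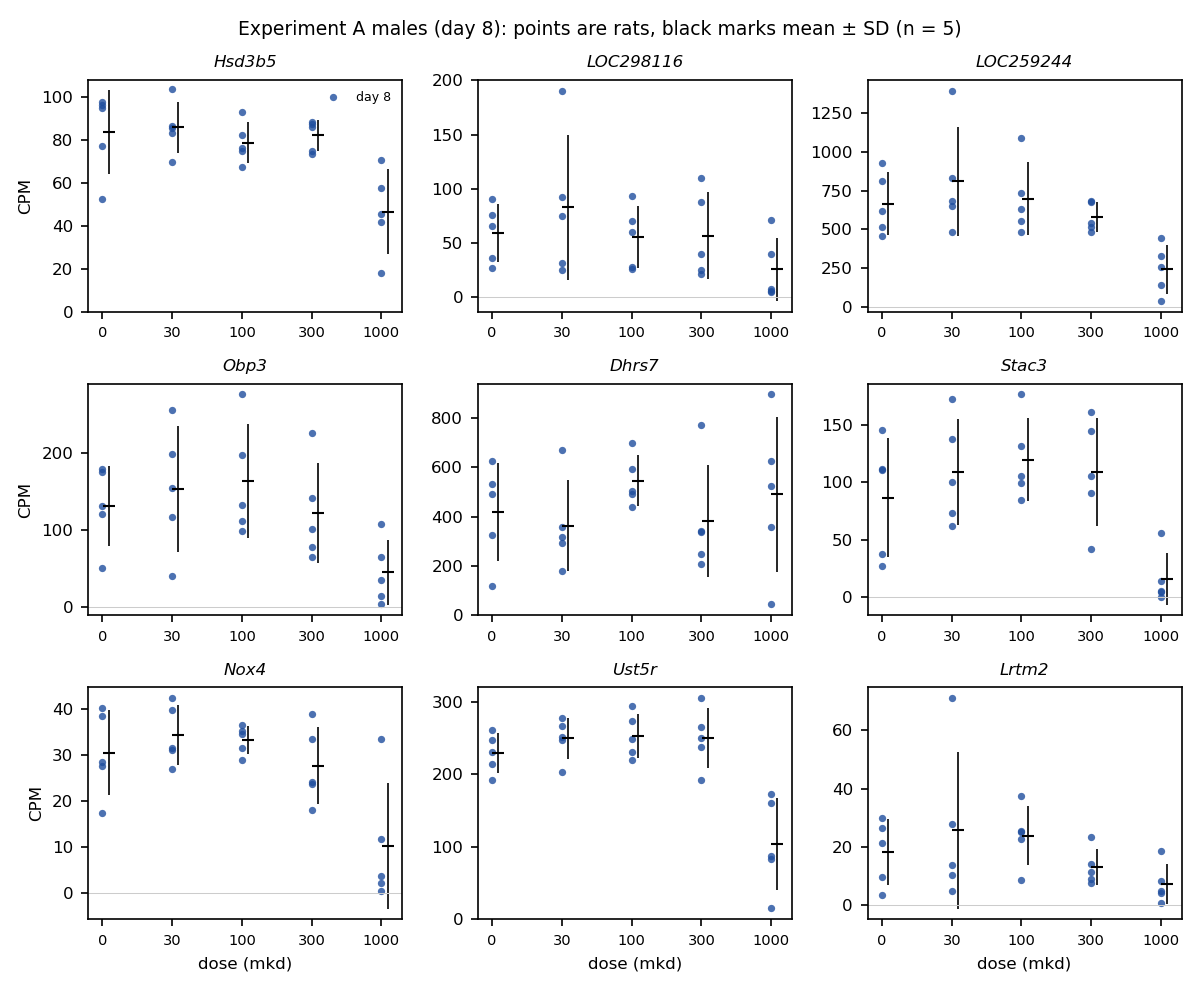
Level of the 9 genes in the 25 males of experiment A by dose (mkd), each point a rat (CPM, linear axes) and each black mark the mean ± SD (n = 5). At 1000 mkd the rats spread widely, and those of LOC259244 and Ust5r lie below all vehicle rats.

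At 30, 100 and 300 mkd none of the 9 genes was called, and at none of them did edgeR call any gene (0%). At an unadjusted p under 0.05 there were 324, 232 and 218 genes, respectively, with 0 of the 9 among them. By DESeq2 no gene of the 9 was called at these doses that was not also called at 1000 mkd. The median log2 fold change of the 9 was 0.22, 0.15 and -0.09.

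Related genes at 1000 mkd were counted from lists written with the study's own results known. Of all genes tested, as given above, 21.4% were called and 7.45% were lower, and the lists themselves were not tested against this. Of 8 tested genes that are predominant in male liver, 5 fell and none rose (median log2 fold change -0.99), with Cyp2c11 at -1.71, Cyp2a2 at -1.22 and Cyp3a2 at -1.22. All 3 are male-type steroid hydroxylases. Of 10 tested genes that are predominant in female liver, 2 fell and none rose (median -0.56), namely Cyp2c7 at -2.10 and the sulfotransferase Sult2a1 at -1.68. Of the 4 tested alpha-2u-globulin genes 2 fell, LOC259244 and LOC100360095 (-2.04).

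Of 12 tested genes of growth hormone signalling, 3 fell and 1 rose (median -0.10). Those that fell were the receptor Ghr (-1.11), its output Igf1 (-1.0) and Igfals (-0.85), which carries IGF1 in serum. The kinase gene Jak2 rose (0.67). Stat5b did not pass.

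The families of single members moved in different ways at 1000 mkd. Of 10 tested NADPH oxidase subunits, 6 rose and 1, Nox4, fell. Those that rose furthest were Ncf4 (1.45), Cybb (1.44) and Cyba (1.27), of which Ncf4 and Cybb are known from phagocytes. Of 13 tested Slc22 transporters, 6 fell and none rose (median -0.65), with Slc22a8 at -1.31, Ust5r at -1.15 and Slc22a23 at -0.96. Both tested Hsd3b genes fell, Hsd3b5 and the bile acid enzyme Hsd3b7 (-0.59). Of 7 tested Dhrs genes 1 fell, Dhrs4 (-0.80). Of the 2 tested Stac and Lrtm genes, Stac3 fell.

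Markers of other cell types moved with these results. Lymphocyte markers rose in 5 of 6 genes, with summed levels of 14.7 to 22.9 CPM in the vehicle rats and 30.3 to 71.9 CPM at 1000 mkd. Kupffer cell markers rose in 3 of 6 (342 to 1140 and 917 to 1608 CPM), endothelial markers in 3 of 5 and stellate cell markers in 1 of 8. All 6 genes of cycling cells rose (14.9 to 69.3 and 80.3 to 206 CPM). Hepatocyte markers fell in 2 of 7, Alb and Ttr, with sums of 228710 to 321983 CPM in the vehicle rats and 66605 to 218615 CPM at 1000 mkd. Cholangiocyte markers passed in 0 of 3. Their part in the results of the 9 genes was not tested. Skeletal muscle markers, which bear on Stac3, were close to 0 in every rat of the series, with at most 0.250 CPM of Acta1, 0.0912 CPM of Ckm and 0.784 CPM of Tnnt3.

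In the males of experiment B, the loss of level with dose that helped choose the genes was seen for some of them and was uneven. On day 8 the mean of all 9 was lower at 1500 mkd than in the vehicle group, with a median log2 fold change of -0.64. It was also lower for all 9 at 300 mkd (-0.66), for 5 at 500 mkd, for 6 at 750 mkd and for 8 at 1000 mkd. The day 8 means thus did not follow the order of the doses.

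On day 8, Stac3 stood at 13.1, 13.1, 32.6, 1.04 and 21.7 CPM at 1500 mkd, against 8.95 to 137 CPM in the vehicle rats (log2 fold change -2.04). Nox4 stood at 19.6, 33.1, 43.2, 13.9 and 24.5 CPM in the vehicle rats and at 10.2, 8.44, 10.9, 7.95 and 16.1 CPM at 1500 mkd (-1.33), and 4 of the 5 treated rats lay below all vehicle rats. Hsd3b5 at 1500 mkd stood at 44.9, 37.9, 43.2, 31.8 and 61.1 CPM (-0.65), and Ust5r at 200, 148, 197, 205 and 234 CPM, against 278, 322, 322, 223 and 305 CPM. Both overlapped the vehicle rats by 1 treated rat. Dhrs7 differed by -0.05. At 300 mkd Lrtm2 stood at 0.456, 2.66, 1.53, 2.50 and 1.89 CPM, below all vehicle rats (-2.42), and Dhrs7 at 305, 181, 68.1, 252 and 198 CPM (-1.01). Non-overlap of this kind was found in 0.103% of all genes at 300 mkd and in 1.14% at 1500 mkd, where none of the 9 showed it.

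On day 29, the mean level of Nox4 was lower at each higher dose. The means were 32.1, 24.2, 21.7, 16.6, 12.7 and 12.1 CPM at 0, 300, 500, 750, 1000 and 1500 mkd. The last step rests on replicate 3 at 1500 mkd, without which the mean there would lie above that at 1000 mkd. The vehicle rats stood at 25.8, 36.0, 41.6, 39.6 and 17.4 CPM and those at 1500 mkd at 6.34, 10.1, 0.973, 15.5 and 27.7 CPM, with replicate 5 inside the vehicle range (log2 fold change -1.37). Stac3 differed by -0.67, Hsd3b5 by -0.37 and Ust5r by -0.34. LOC259244, by contrast, stood at 953, 805, 137, 1110 and 1080 CPM at 1500 mkd, against 552, 765, 835, 980 and 660 CPM in the vehicle rats (0.13), and Obp3 at 115, 78.9, 2.14, 170 and 142 CPM, against 49.6, 78.3, 102, 109 and 78.6 CPM (0.31). In LOC259244 2 and in Obp3 3 of the treated rats lay above every vehicle rat, and replicate 3 lay below them all in both.

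Replicate 3 of this group was the lowest of all 30 males of day 29 in each of the 9 genes, at 0.610 to 35.1% of the vehicle mean. The paper names the same rat as an outlier in liver Ki67 labelling and excluded it from its dose modelling. It reports no rise in the other liver injury measures of this rat. Mki67 stood at 251 CPM in this rat and at 3.11 to 14.3 CPM in the other 4, and Alb at 37.4% of the vehicle mean. With it, 6 of the 9 genes were lower at 1500 mkd (median log2 fold change -0.15). Without it, 4 were lower (median 0.10), and Nox4 still differed by -1.14. Markers of cell types were also summed at 1500 mkd, and the ranges given here overlapped those of the vehicle rats. Those of cycling cells summed to 17.1 to 70.4 CPM in the vehicle rats and 50.3 to 168 CPM at 1500 mkd on day 8, and to 13.9 to 36.4 and 18.1 to 1078 CPM on day 29. Those of hepatocytes summed to 178239 to 239035 and 165637 to 228473 CPM on day 8, and to 164651 to 212019 and 81155 to 184915 CPM on day 29. The median log2 fold change of the lymphocyte markers was -0.04 on day 8 and 0.48 on day 29, and that of the Kupffer cell markers 0.20 and 0.48. Their part in the levels of the 9 genes was not tested. None of the 9 had every treated rat below every vehicle rat at 1500 mkd, against 4.63% of all genes.

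**Figure D3:**
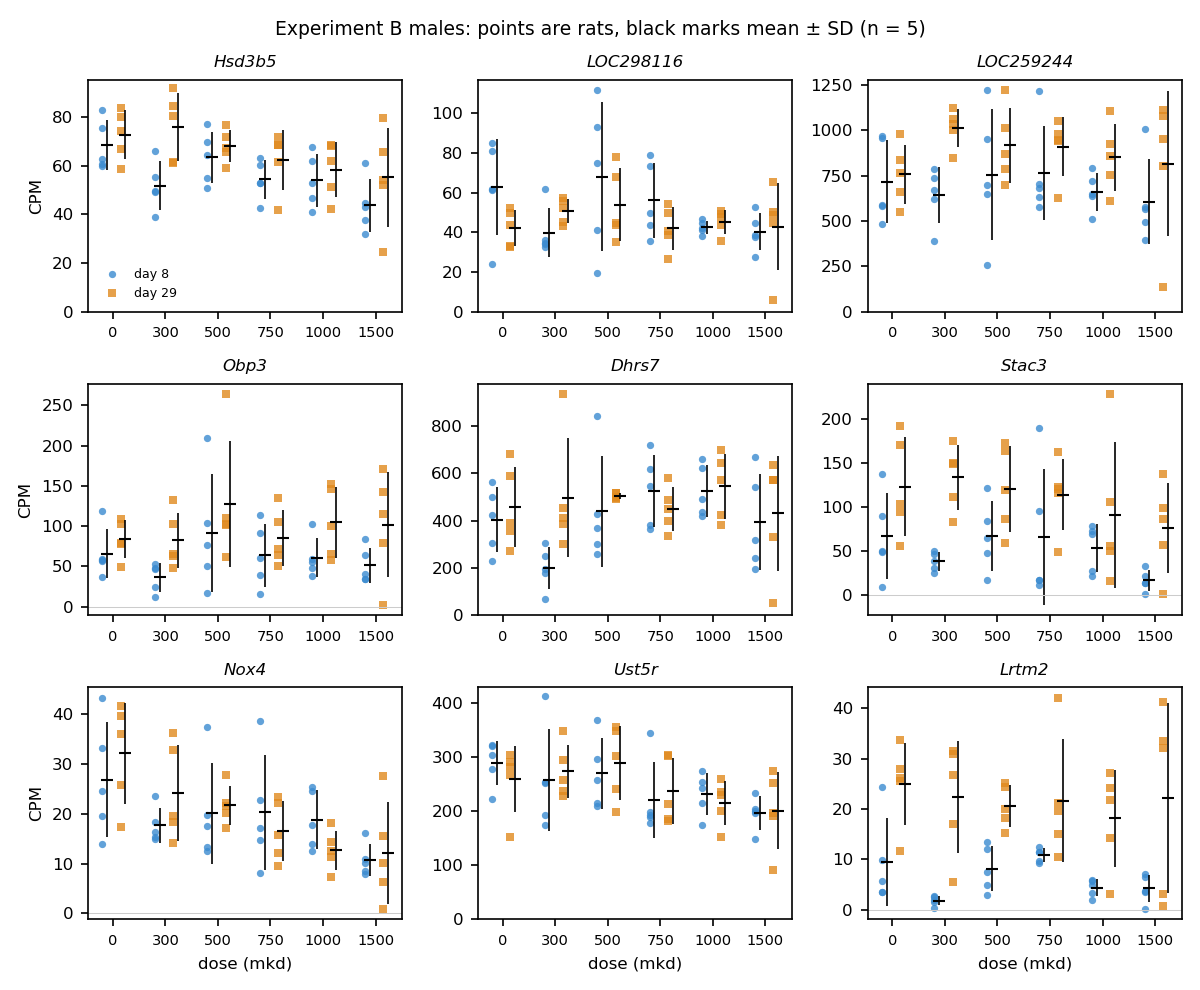
Level of the 9 genes in the 60 males of experiment B by dose (mkd), day 8 (circles) and day 29 (squares), each point a rat (CPM, linear axes) and each black mark the mean ± SD (n = 5). Nox4 is lower at the higher doses on both days, and 1 rat at 1500 mkd on day 29 is the lowest male of that day in all 9 genes.

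At 1000 mkd, a dose that all 3 male data sets share, the median log2 fold change of the 9 genes was -1.33 in experiment A day 8, -0.33 in experiment B day 8 and -0.24 in experiment B day 29, with 8, 8 and 5 genes lower. The difference between the experiments was not tested, since the male response of experiment B was used in choosing the genes. Stock and experiment cannot be told apart.

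**Figure D4:**
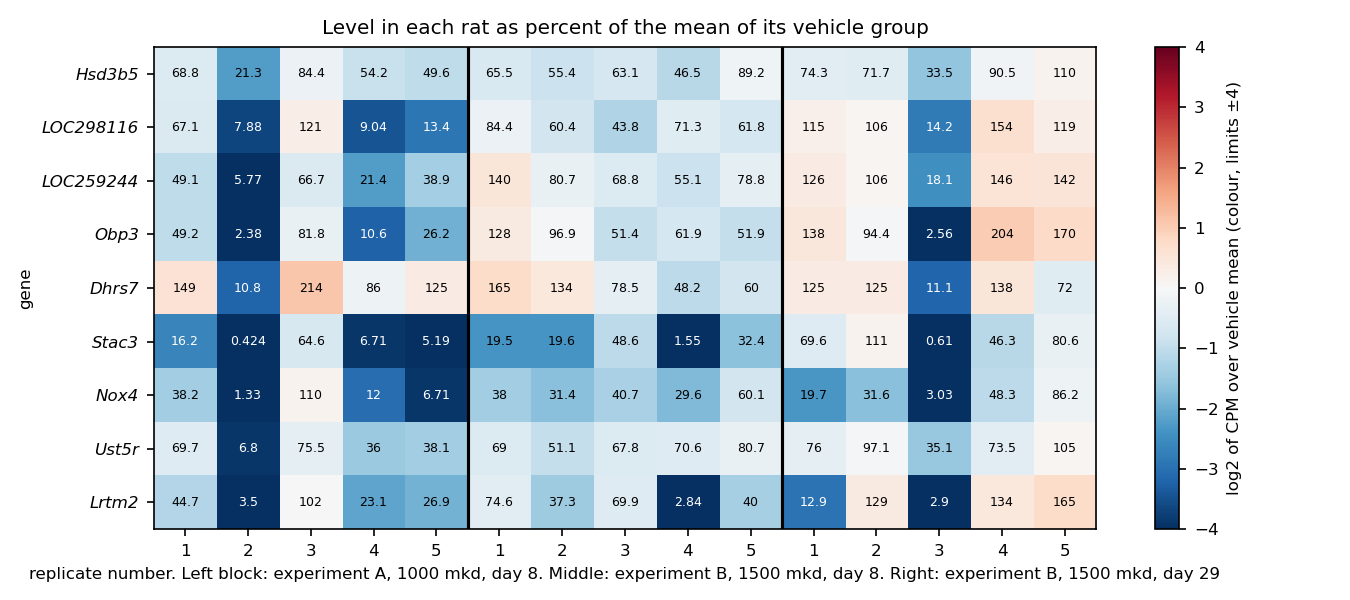
Level of the 9 genes (vertical axis) in each of the 15 males of the highest dose groups (horizontal axis, replicate number), written as a percent of the vehicle mean of the same data set and coloured by log2 of that ratio. Replicate 2 of experiment A and replicate 3 of experiment B day 29 are low in all 9 genes.

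In females, 4 of the 9 genes, LOC259244, Dhrs7, Stac3 and Ust5r, passed the filter on low counts and were tested. On day 8 none was called at 300, 500, 750, 1000 or 1500 mkd, against 0.0087, 0.0174, 0.0174, 1.37 and 0.705% of all genes, respectively. By DESeq2 none was called either, and at 1500 mkd 1688 genes including 1 of the 4 had an unadjusted p under 0.05. Stac3 had log2 fold changes of -1.88 at 1000 mkd (edgeR, adjusted p = 0.117) and -1.34 at 1500 mkd (adjusted p = 0.262). Its slope over all doses was -1.10 log2 units per 1000 mkd (adjusted p = 0.0562), where 5.44% of all genes passed.

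On day 29, Stac3 fell at 1500 mkd in females, as 1 of 4 genes tested, against 13.1% of all genes in either direction and 3.54% lower. Stac3 stood at 0.307, 0.599, 0.400, 6.08 and 4.08 CPM in the vehicle females and at 0.339, 0.154, 0.603, 0.0325 and 0.0805 CPM at 1500 mkd. The groups overlapped, and vehicle replicates 4 and 5 stood far above the other rats. The log2 fold change was -3.16 ± 1.14 (edgeR, adjusted p = 0.0491, and -3.20 with an adjusted p of 0.0251 without the library that stood apart). The call was lost with the vehicle and 1500 mkd groups alone, without the filter on low counts, and without either of vehicle replicates 4 and 5 or any 1 rat at 1500 mkd. Stac3 did not follow the order of the doses. Its log2 fold changes were -0.62, -2.22, -0.59 and 0.05 at 300, 500, 750 and 1000 mkd, respectively. The highest Stac3 level of all females, 9.78 CPM, was that of a rat at 1000 mkd. The slope of Stac3 over all doses was -0.99 log2 units per 1000 mkd and did not pass (edgeR, adjusted p = 0.319).

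LOC259244 had a slope of -3.09 log2 units per 1000 mkd over the females of day 29 (edgeR, adjusted p = 0.0199), where 27.3% of all genes passed. Its level was 0.0631 to 0.346 CPM in the vehicle females and 0 to 0.198 CPM at 1500 mkd. Without the library that stood apart at 300 mkd, where LOC259244 was 15.2 CPM, the slope was -0.73 and no longer passed (edgeR, adjusted p = 0.333). Dhrs7 stood at 1.47, 1.96, 1.61, 1.56 and 1.09 CPM at 1500 mkd and was not called at any dose, nor was Ust5r. At 300, 500, 750 and 1000 mkd none of the 4 genes was called, against 0, 0.0349, 0.183 and 1.59% of all genes. At 300 mkd, in the group that holds the library that stood apart, 3 of the 4 had an unadjusted p under 0.05. The response at 1500 mkd was tested for a difference between day 29 and day 8 in the 3 of the genes that passed the filter over both days, and none passed. By edgeR and by DESeq2 0% of all genes passed, with 562 at an unadjusted p under 0.05 in edgeR and 0 of the 3 among them.

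**Figure D5:**
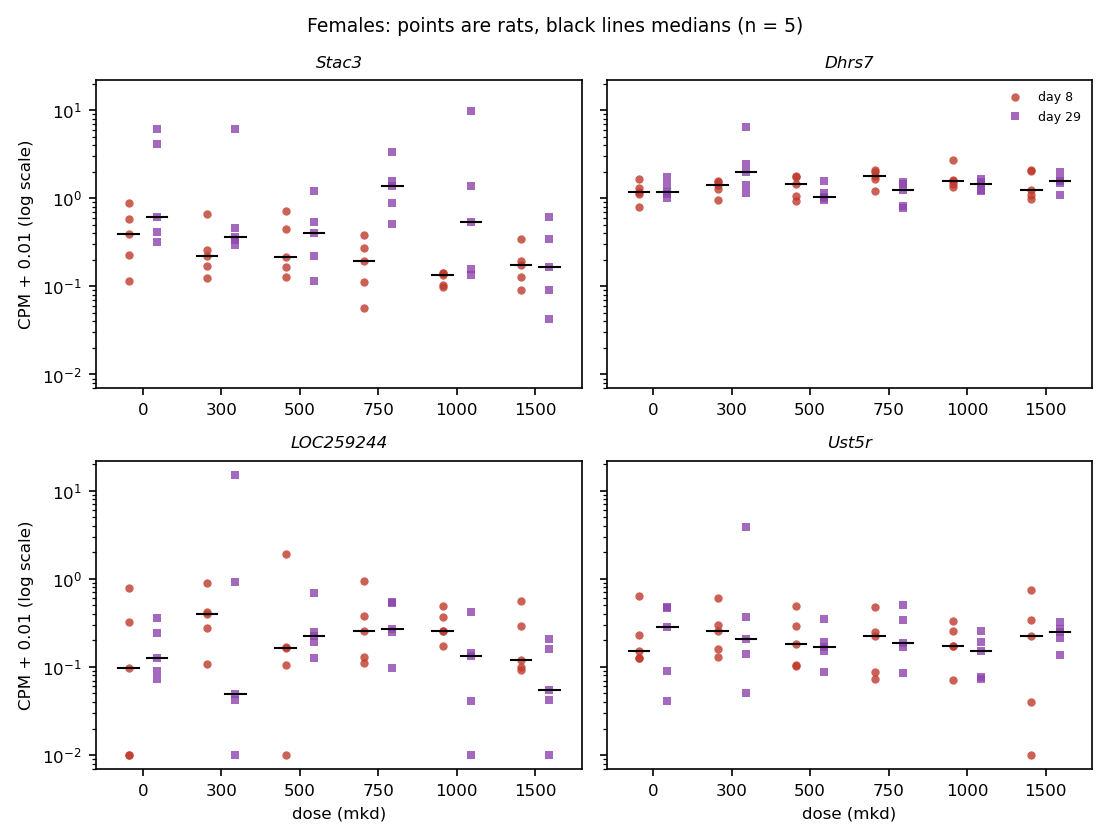
Level in females of experiment B by dose (mkd), day 8 and day 29, for the genes that passed the filter on low counts, each point a rat and each line the median (CPM plus a small offset, log axis, so that rats with no count lie at the bottom). Replicate 3 at 300 mkd on day 29 stands above the other females in Dhrs7, LOC259244 and Ust5r. In Stac3 a rat at 1000 mkd on day 29 stands higher, and 2 vehicle rats of day 29 are also high.

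The same lists were counted in the females of day 29 at 1500 mkd, beside the 13.1% of all genes called and the 3.54% lower. Of 11 tested genes that are predominant in female liver, 6 fell and none rose (median log2 fold change -0.75), with the transcriptional regulator Tox at -1.99, the prolactin receptor Prlr at -1.29 and Cyp2c12 at -1.14. Of 12 growth hormone signalling genes 1 fell, Ghr (-1.01). Of 9 NADPH oxidase subunits 5 rose and none fell, and Nox4 was not tested. Of the 7 genes predominant in male liver and the 2 alpha-2u-globulin genes tested, none passed. All 6 markers of cycling cells rose, as did 3 of 6 Kupffer cell, 2 of 5 lymphocyte, 2 of 5 endothelial, 2 of 8 stellate cell and 1 of 3 cholangiocyte markers. Of 7 hepatocyte markers 2 fell and 1 rose. Their part in the result of Stac3 was not tested.

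Among vehicle males none of the 9 genes was called between days or experiments, and among vehicle females neither Dhrs7 nor Stac3 was called between days. The other genes had few counts in these females, with at most 0.778 CPM for LOC259244 and 0.637 CPM for Ust5r. The fit also holds the males, through which they could pass its filter, so they are not counted for the females. Between day 29 and day 8 males, where 0.0266% of all genes were called, Lrtm2 differed most, from 9.97, 24.4, 3.62, 3.49 and 5.80 CPM to 25.5, 28.0, 26.1, 33.6 and 11.6 CPM (log2 fold change 1.38, edgeR, adjusted p = 0.389), and was the 1 gene with an unadjusted p under 0.05. Between the females of the same days, where 0.859% were called, Stac3 differed by 2.41 (adjusted p = 0.132) and was called by DESeq2. This difference rests on the vehicle females of day 29 that were high in Stac3, as given above. The others did not exceed the day 8 maximum of 0.864 CPM. Between experiments A and B on day 8, where 1.22% were called, Obp3 was higher in experiment A by 1.00 (adjusted p = 0.0892), the 1 gene with an unadjusted p under 0.05, and DESeq2 called none. Duration cannot be told apart from age and data set in these comparisons.

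The 9 genes varied together among males of the same dose group. After the group means were removed, the Pearson correlation of log2 CPM over the 85 males had a median of 0.61 over the 36 pairs (0.36 to 0.87), and 31 pairs exceeded 0.5. The rats share their library, depth and liver composition across genes, so this is a description. Genes outside the set also reached such values. Alb correlated with the 9 genes at 0.42 (Dhrs7) to 0.82 (Ust5r), and Stat5b at -0.24 (LOC298116) to 0.21 (Stac3). Among the pairs of the 9, the values were as follows. The highest value was that of LOC259244 and Obp3 (0.87), followed by Nox4 and Ust5r (0.82). Without the 2 male libraries that were lowest in all 9 genes, the median over the pairs was 0.36 and that of LOC259244 and Obp3 was 0.76.

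The genes outside the set with the most similar pattern were, for Hsd3b5, Proz (0.80), Acsm1 (0.77) and Dhtkd1 (0.77), out of 10085 genes with a mean of at least 1 CPM. For Nox4 they were Cyp2c11 (0.83), Proz (0.82) and Sult1c3 (0.82), and for Ust5r Hsd17b4 (0.84), Sult1c3 (0.84) and Pros1 (0.83). For the alpha-2u-globulin genes RGD1566134 came first each time, with 0.87 for LOC259244, 0.85 for Obp3 and 0.84 for LOC298116. The next were Rup2 (0.80) and Asgr1 (0.79) for LOC259244, F9 (0.75) and Mlc1 (0.74) for Obp3, and Cdo1 (0.64) and Rup2 (0.64) for LOC298116. Dhrs7 was nearest to Tmem150a (0.75), Gstz1 (0.72) and Cyp2d4 (0.72), Stac3 to Slc46a1 (0.76), Upb1 (0.75) and Rnasek (0.75), and Lrtm2 to Ivd (0.72), Adhfe1 (0.71) and Gstz1 (0.71). Without the 2 low libraries these 27 correlations were 0.41 to 0.79. In experiment B alone, the first-named gene was still first for 6 of the 9 genes, while Hsd17b4 ranked 33 for Ust5r, Ivd 18 for Lrtm2 and Slc46a1 9 for Stac3. In the 60 females Dhrs7 alone reached a mean of 1 CPM, and its nearest gene was Cyp2c13 (0.64, and 0.43 without the library that stood apart).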

How the data were processed

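Liver RNA of 145 rats was sequenced as stranded mRNA libraries with single-end reads. The authors trimmed the reads with Trimmomatic, aligned them to the rat genome (Rn6) with Bowtie2, counted them on genes with HTSeq and deposited raw counts, without normalization, in 5 tables. The summary lines of HTSeq in the 4 tables of experiment B (35.5 to 67.1% of the counts of a rat, median 41.2%) were left out. Between 15449716 and 39986531 reads per rat lay on genes. The number of per-sample columns left unused was 0. Replicate numbers are those of the replicate field of the labels, which in experiment A are not always the animal numbers of the titles. The vehicle males of day 29 carry the tag of the other exposure experiment in the labels but the title and stock of experiment B, and were taken as part of it.

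The 9 genes and the gene lists were chosen with earlier results of these data known. CPM were computed with TMM scaling over all libraries. Each table was fitted with edgeR 4.0.16 in R 4.3.3 (quasi-likelihood F-test, TMM, filter on low counts, all dose groups), and vehicle comparisons in a fit of the 25 vehicle rats. Calls required a change of 1.5-fold or more together with an adjusted p no higher than 0.05, by the Benjamini-Hochberg method over all genes of a comparison. Slopes and differences of response were called at an adjusted p of at most 0.05. Adjusted p come from edgeR throughout, except where DESeq2 is named. Of each list, up to 3 called genes with the largest fold change are named, and of the similar patterns the 3 highest per gene, leaving out the listed alpha-2u-globulin genes. A list result of the females of day 29 is not reported here. Shares of genes without overlap cover those with a mean of at least 0.5 CPM, and correlations used log2 CPM with a prior count of 2. The floor for a group with no count was 3 counts. Percentages of the male level carry exact Poisson 95% intervals, which cover counting error only. The fit was tested on simulated data.

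The alternatives were DESeq2 1.42.0 (Wald test), its size factors in edgeR, omission of the filter, a minimum of 10 counts in all rats, the 2 groups alone, the replicate number as a block, leaving out rats, and a prior count of 0.5 or the males of experiment B alone for the correlations. Leaving out the female library that stands apart, and the 2 low male libraries from the correlations, was added after seeing the data.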

Additional observations from a re-analysis of the deposited data

Results flagged for a closer look

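Within groups of 5 rats, 18 of 170 combinations of gene and group (10.6%) had a rat whose gap to its nearest neighbour took a larger share of the group's range than 0.71, Dixon's critical value, a share that chance alone passes in about 5% of groups.

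In the males of day 29 at 1500 mkd, replicate 3 was the lowest rat. Its gap took 0.842 of the log2 range for LOC298116 (5.98 CPM, next 44.7), 0.846 for LOC259244, 0.823 for Obp3 (2.14 CPM, next 78.9), 0.741 for Dhrs7 and 0.829 for Stac3. At 750 mkd on day 29, replicate 5 was lowest in Hsd3b5 (0.718) and LOC259244 (0.785) and replicate 1 in Stac3 (0.717). Among the vehicle males of day 29, replicate 5 was lowest in Ust5r (0.815, at 152 CPM, next 268) and Lrtm2 (0.738).

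On day 8, replicate 4 of the males at 1500 mkd was lowest in Stac3 (0.73) and Lrtm2 (0.775, at 0.268 CPM, next 3.53), and replicate 1 at 750 mkd was highest in LOC259244 (0.729) and Ust5r (0.844). LOC298116 had a low vehicle male (replicate 4, 0.738) and a high male at 300 mkd (replicate 2, 0.842). In females, Dhrs7 was high in replicate 4 at 1000 mkd on day 8 (0.76) and Stac3 in replicate 3 at 300 mkd on day 29 (0.866).

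The Y-linked gene Eif2s3y, which is not one of the 9, was counted in that last female library at 0.784 CPM, above all other females.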

How the results depend on the processing

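The calls at 1000 mkd in experiment A numbered 5, 4 to 8 with 1 rat left out (8 without treated replicate 3) and 0 with the 2 groups alone. Over all doses it was 0 to 7 without 1 replicate number (0 without replicate 4). In females of day 29, the 1 call at 1500 mkd, and that at any dose, became 0 without the filter and with at least 10 counts in every rat, as did the first with the 2 groups alone, and each was 0 or 1 with rats left out. The slope call of day 29 became 0 with at least 10 counts in every rat and without the library that stood apart, and 0 to 2 with 1 replicate number left out. That count minimum left neither gene in the test, and DESeq2 gave the slope of LOC259244 no adjusted p, so that no value was taken from it. Stac3 between vehicle females of both days was 1 call by DESeq2 against 0. Obp3 was 1 call between the vehicle males of experiments A and B without replicate 5 of A or replicate 3 of B, against 0. The cause of these shifts was not tested. The other tested counts stayed at 0 under every alternative run.

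With 1 rat left out, the median log2 fold change of the 9 genes at 1500 mkd in males ranged from -0.70 to -0.52 on day 8 and from -0.54 to 0.10 on day 29, where it was 0.10 without replicate 3. The median between the sexes ranged from 9.91 to 10.9 on day 8, highest without female replicate 1, and from 9.74 to 11.2 on day 29, highest without female replicate 4. The median correlation was 0.36 without the 2 low libraries. The log2 fold change of Dhrs7 changed sign with rats left out. It ranged from -0.11 to 0.52 at 1000 mkd in experiment A, below 0 without treated replicate 3 or vehicle replicate 5, and from -0.053 to 0.21 between vehicle females of both days, below 0 without replicate 5 of day 29 or replicate 4 of day 8.

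The rats were not treated as paired by replicate number. Deviations of same-numbered rats correlated at -0.014 to 0.051 on average per table, with single pairs as low as -0.61. The highest average was that of experiment A, against -0.013 for rats of different numbers. Low averages cannot exclude a pairing. With the replicate number as a block, 6 genes were called in experiment A at 1000 mkd, at any dose also 6, and the slope call of day 29 became 0. Stac3 was still the 1 call in females of day 29, and all other counts were 0.

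Depth limits the female values. Of the 9 genes, 5 did not pass the filter of the female dose comparisons, and a value of 0 in a library says only that no read was counted.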
